A study of Poecilia latipinna with 15 samples.

Results

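A set of 136 brain transcripts of female sailfin mollies (Poecilia latipinna, a livebearing fish) was examined because their abundance ran in opposite directions with preference behavior in the 2 social contexts of the study. Members were selected on the Spearman rank correlation (rho) between abundance and preference score, computed apart in each context. A transcript was a member when rho was 0.6 or more in one context and -0.6 or less in the other. Abundance was given as CPM, the estimated count of a transcript scaled by the total of its library. Of 31813 transcripts in the files, the 21671 with more than 2 TPM (a unit of transcript abundance that also corrects for length) in 3 or more females entered the search, and all 136 members come from these. Because the correlations with preference chose the members, every value of those correlations below is a description and not a test.

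The 15 focal fish were sexually experienced adult females from an outdoor pond, each kept alone for 2 weeks and then given a single 30 min choice trial behind clear dividers. In the male-interaction context (Mm, 8 females) a female could direct her movements at a large or a small male, and in the female-interaction context (Ff, 7 females) at a large or a small female. The same stimulus fish served repeatedly within a context, and no group went without a social partner. Whole brains were taken directly after the trial and each was sequenced as its own library, so every value below belongs to 1 animal.

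The preference score measures how strongly a female's movements were aimed at one stimulus fish over the other, so a high score marks a female that attended mainly to 1 of the 2 fish and a low score a female that divided her attention. Partner choice in fish draws on sensory pathways and on forebrain and midbrain circuits that also serve shoaling, and mate choice and shoal choice use many of the same cues, body size among them. The selection asks which transcripts ran one way with choosiness toward males and the other way with choosiness toward females. In a whole brain, fewer cells of a type and less RNA per cell cannot be told apart.

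None of the transcript identifiers (0 of 31813) is paired with a gene in the tables used here, so members are given by Ensembl transcript identifier, annotated length and abundance. Gene names, gene lists and brain cell markers were not analysed, and the tissue label was not checked against markers. Transcripts of the same gene or of close paralogs can share reads, which the counting program divides between them, so opposite behavior of a transcript does not show opposite behavior of its gene. The members ENSPLAT00000015363.1 and ENSPLAT00000008758.1, both of 2415 bases, had identical values in every female, and each is counted as a member. The 7 Ff libraries held 5301116 to 10555933 estimated counts (median 6001956), and the 8 Mm libraries 3424641 to 9989142 (median 5774792).

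Transcripts with opposite correlations were few beside those with the same direction. A total of 59 transcripts, 0.272% of those tested, rose with preference for males and fell with preference for females. The reverse pattern, falling with mate preference and rising with shoaling partner preference, was found in 77 transcripts, 0.355% of those tested. In comparison, 768 transcripts rose with preference in both contexts by the same threshold and 529 fell in both. In the male-interaction context alone 2699 transcripts had a rho of 0.6 or more and 1933 a rho of -0.6 or less, and in the female-interaction context the numbers were 3221 and 2106. Multiplying these shares gives 550 transcripts with opposite directions, against the 136 found, and 589 with the same direction, against 1297. These products take the contexts as independent, come from the correlations that chose the members and were not tested. Shuffled scores, given next, had a median of 162 transcripts with opposite directions, and the same direction was not set against shuffles.

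The count of members was set against scores shuffled among the females of each context. Over 100 shuffles the number of transcripts meeting the rule ran from 74 to 742, with a median of 162, and it was at least 136 in 69 of them. For the 59 transcripts rising in the male-interaction context the shuffles ran from 32 to 483 with a median of 83, and 75 of the 100 gave at least as many. For the 77 falling there they ran from 35 to 377 with a median of 79, and 56 gave at least as many. The number of members was thus no larger than the typical number from shuffled scores, in either direction.

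**Figure D1:**
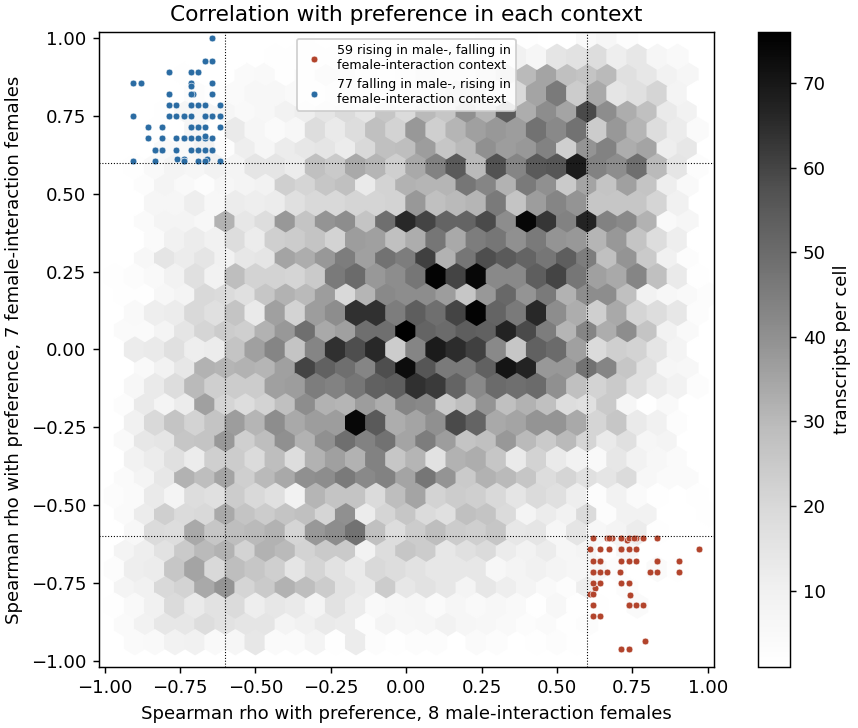
Spearman rho of CPM with the preference score in the 8 male-interaction females (horizontal axis) and in the 7 female-interaction females (vertical axis) for 21671 transcripts. Gray cells count transcripts, colored points are the 59 and 77 members beyond the dotted thresholds at 0.6 and -0.6, and most transcripts outside them lie near the middle or along the rising diagonal.

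Many members lay close to the threshold. The smaller of a member's 2 rho sizes was 0.607 at the lowest in both directions, and the nearest transcripts outside stood at 0.595. Between 0.6 and 0.65 there were 38 members rising and 34 falling in the male-interaction context, and a band of the same width below the threshold, from 0.55 to 0.6, held 48 and 51 transcripts. With males the median size of rho was 0.714 in both directions, and with females it was 0.679 for rising and 0.714 for falling members. At a threshold of 0.7 in both contexts 14 rising and 23 falling transcripts were left, and at 0.8 only 2 falling ones were.

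The first of these 2 was ENSPLAT00000030294.1, a transcript of 792 bases with a mean of 19.2 TPM, whose rho was -0.881 with males and 0.857 with females. Across the 8 Mm females its level ran from 8.11 CPM to 13.0 CPM with a median of 10.4 CPM, and the mean was 10.3 ± 1.94 CPM (SD, n = 8). The 3 least choosy females of that context averaged 12.3 ± 1.01 CPM and the 3 most choosy 8.3 ± 0.18 CPM (SD, n = 3 each), without overlap. In the female-interaction context the level ran from 5.3 CPM in female 17, the least choosy, to 15.4 CPM in female 7, the second most choosy, with a median of 10.6 CPM and a mean of 10.7 ± 3.45 CPM (SD, n = 7). There the 3 least choosy females averaged 8.51 ± 2.82 CPM and the 3 most choosy 13.6 ± 2.09 CPM, again without overlap. The fitted change from the lowest to the highest score was -0.73 (log2, standard error 0.32) with males and 0.97 (standard error 0.33) with females. The 2 context means lay within 1 SD of each other.

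The second was ENSPLAT00000016778.1, of 4037 bases and 10.2 TPM on average, with a rho of -0.905 and 0.857. With males it went from 79.5 CPM in female 12, the least choosy, to 11.4 CPM in female 5 and 11.7 CPM in female 4, the 2 most choosy, with a median of 29.3 CPM. In the female-interaction context the lowest value was 0.00327 CPM in female 9, the median 23.9 CPM and the highest 67.0 CPM in female 7. The 3 females with the lowest scores averaged 56.0 ± 20.4 CPM with males and 6.89 ± 6.56 CPM with females, and the 3 with the highest scores 18.0 ± 11.2 CPM with males and 52.4 ± 13.6 CPM with females (SD, n = 3 each). The fitted change over the range of scores was -2.22 (log2, standard error 1.09) for Mm and 2.92 (standard error 1.28) for Ff. In female 9 the estimated count was 0.0179 of a read, less than 1 read, while her neighbours in preference order had 69.3 (female 19) and 251.8 (female 8) estimated reads. Whether her reads were assigned to another transcript of the same gene was not tested.

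Among the transcripts rising with mate preference, ENSPLAT00000017760.1 had the highest smaller rho, 0.791 with males and -0.937 with females. It has 1119 bases and averaged 1.59 TPM, and it was listed at an estimated count of 0 in 7 of the 15 females. Among the 8 Mm females its values ran from 0 to 5.47 CPM with a median of 0, and only females 10, 5 and 4 had reads, with 5.67, 5.8 and 18.7 estimated reads. In the female-interaction context the 2 least choosy females, 17 and 19, had 5.76 and 5.7 CPM (36.9 and 30.2 estimated reads), and the other 5 had between 0 and 0.011 CPM. A count of 0 in these libraries allows up to 3 reads, which is between 0.3 and 0.696 CPM, for counting error only. It was thus detected above this floor in 5 females only, 3 with males and 2 with females. Its rho of -0.937 ranks fractions of a read among the 5 more choosy Ff females, and with counts rounded to whole reads rho was -0.802.

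ENSPLAT00000017466.1, of 3435 bases and 10.6 TPM on average, was the next rising member, with a rho of 0.786 and -0.821. It ran from 11.5 to 41.7 CPM with a median of 31.8 CPM with males, and with females from 21.1 to 33.2 CPM with a median of 24.9 CPM. The most choosy females with males, 3, 5 and 4, averaged 39.1 ± 3.33 CPM and the least choosy 21.4 ± 12.2 CPM (SD, n = 3 each), and these groups did not overlap, although female 13 with the second-lowest score reached 35.0 CPM. In the female-interaction context the 3 least choosy females averaged 29.0 ± 4.12 CPM and the 3 most choosy 22.8 ± 1.93 CPM, and the groups met at 24.9 CPM. The fitted change was 1.15 (log2, standard error 0.34) for Mm and -0.41 (standard error 0.41) for Ff, so that the second is no larger than its error.

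**Figure D2:**
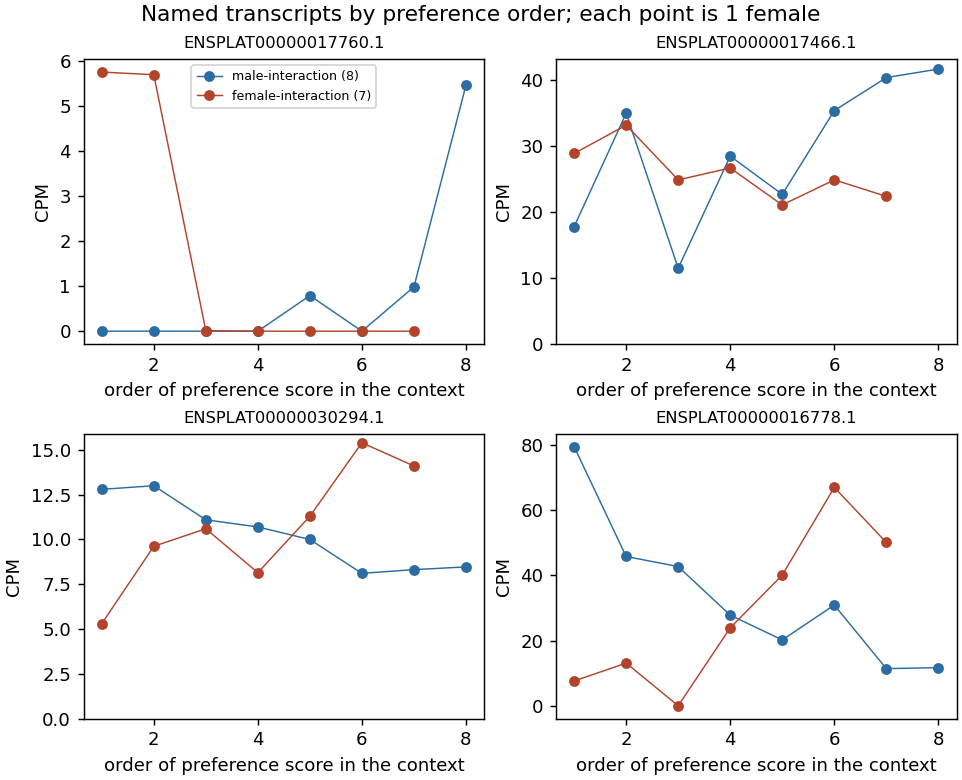
CPM of the 4 named transcripts (vertical axis) by the order of the preference score within each context (horizontal axis, 1 is the lowest score), with each point 1 female and lines joining females of a context. The upper pair rises in the male-interaction context (blue) and falls in the female-interaction context (red), the lower pair does the reverse, and ENSPLAT00000017760.1 is near 0 in most females.

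Over the range of scores the median fitted change of the 59 rising members was 0.95 (log2) with males and -0.86 with females. The 77 falling members had medians of -0.80 and 0.51. The median size of change over all members was 0.80 (Mm) and 0.64 (Ff), against 0.41 and 0.36 over all transcripts tested. These sizes come from the contrast that chose the members. A fitted change of 2-fold or more in both contexts was reached by 18 rising and 14 falling members, and 26 and 44 reached it in neither. Those reaching it include transcripts at 0 in many females. A falling one of 1080 bases, at 0 in 10 females, had changes of -5.41 (Mm) and 3.93 (Ff). With females only female 2, the most choosy, was above 0, and the Ff mean was 0.156 CPM, so the Ff change rests on 1 female. A rising one of 1245 bases, at 0 in 9, had 3.76 and -5.59. Others held no 0, such as a falling one of 3206 bases (-1.08 and 1.08). The largest changes, 10.0 (Mm, standard error 3.47) and -17.6 (Ff, standard error 7.89), belonged to 1 rising transcript of 6282 bases. It held no estimate of exactly 0, but several females were near 0 CPM. With females, its deviation from the context mean in log2(CPM + 1) was 3.04, 2.99 and 2.63 in females 17, 19 and 9. In females 8, 1, 7 and 2 it was -2.18 to -2.13, near 0 CPM. With males, females 12, 11 and 10 were likewise near 0 CPM (-2.64 to -2.6). Its fitted changes thus reflect presence or near absence and not a graded change. The sign of the linear slope followed the sign of rho in every member with males, and with females in 58 of 59 rising and 75 of 77 falling members.

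The most abundant members, singled out after their values were seen, changed by less than 2-fold over the score in both contexts. The most abundant one was a falling transcript of 231 bases, with a mean of 618 TPM. It ran from 48.2 to 82.6 CPM with males and from 48.9 to 75.5 CPM with females, and its fitted changes were -0.53 and 0.46 (log2). The most abundant rising transcript, of 924 bases and 298 TPM, ran from 156 to 190 CPM with males and from 178 to 246 CPM with females, with fitted changes of 0.08 and -0.26. A rising transcript of 588 bases and 139 TPM moved more, from 39.3 CPM in the 3 least choosy to 62.8 CPM in the 3 most choosy females with males, and from 67.1 to 44.5 CPM with females. A falling transcript of 2138 bases and 164 TPM averaged 279 CPM in the 3 least choosy and 239 CPM in the 3 most choosy females with males, against 261 and 275 CPM with females.

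The median length was 2097 bases for rising and 1671 bases for falling members, against 1782 bases for all transcripts tested (quartiles 972 and 3139). The median level was 7.06 TPM for rising and 11.7 TPM for falling members, against 10.9 TPM for all. A count of 0 in at least 1 female was found in 14 rising and 11 falling members, 18.4% of the 136, and in 19.3% of all transcripts tested. In 11 members (8.09%) at least 1 female had an estimate above 0 and below 0.5 of a read, against 6.18% of all transcripts. Without every transcript that held a 0, 111 members were left of 17479 transcripts, which is 0.635%.

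Within a context the females at the ends of the preference score were most often the highest or the lowest. In the rising set, female 4, the most choosy with males, was the highest of the 8 in 32 of the 59 transcripts, and female 12, the least choosy, was the lowest in 32. With females, the least choosy female 17 was the highest in 30 of 59 and the most choosy female 2 the lowest in 20. In the falling set female 12 was the highest in 37 of 77 and female 4 the lowest in 27 with males, whereas female 17 was the lowest in 37 and female 2 the highest in 33 with females. Females nearer the middle of the score also held extremes. With males female 10 was the lowest in 19 of the 77 falling members. With females female 8 was the lowest in 13 of the 59 rising members. On the log2(CPM + 1) scale the median deviation from the context mean in the rising set went from -0.46 in female 12 to 0.46 in female 4, and from 0.39 in female 17 to -0.31 in female 2. Such a gradient is built in by the rule, and the counts show only how it was divided among females.

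**Figure D3:**
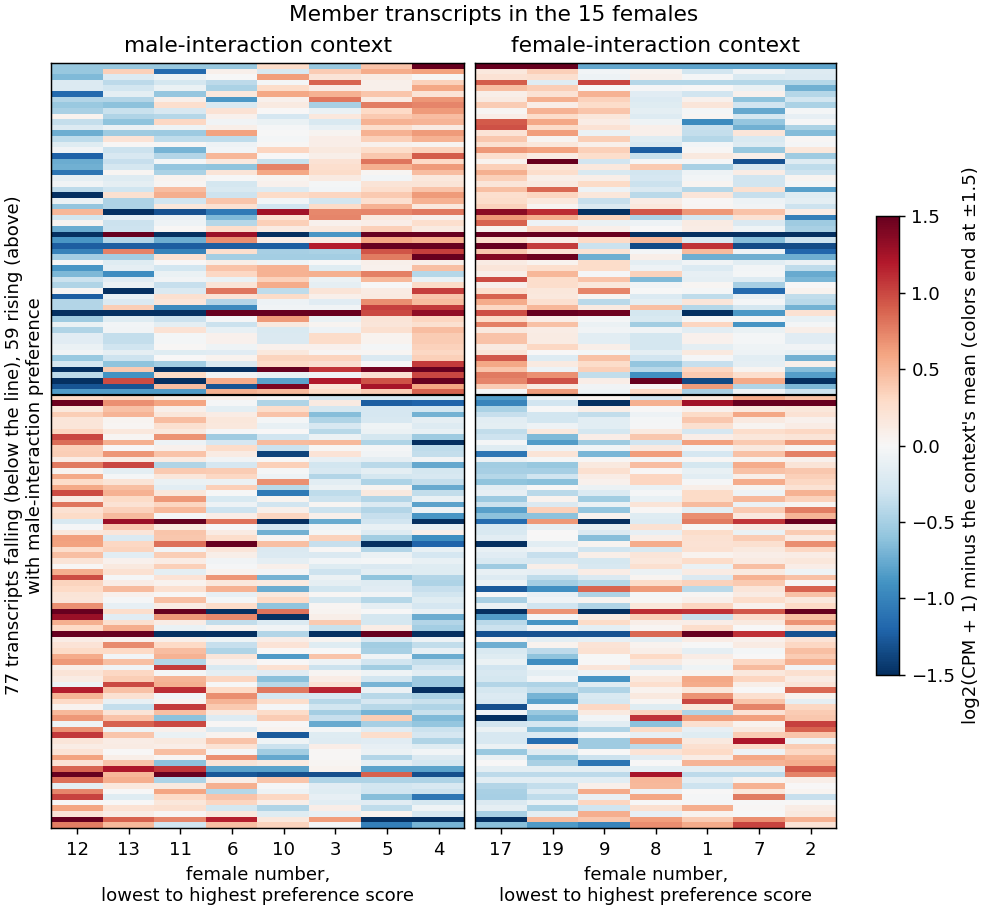
Deviation of log2(CPM + 1) from the mean of the context for each of the 136 members (rows) in the 8 male-interaction and 7 female-interaction females (columns, from the lowest to the highest preference score). Above the black line are the 59 members that rise with males and fall with females and below it the 77 with the reverse, so that the colors trade places from left to right in both panels and between panels.

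Most members depended on at least 1 of the females. Of the 136 members, 28 met the rule in each of the 15 sets of 14 females, 12 of them rising and 16 falling with mate preference. All 4 named transcripts were among them, which follows in part from their choice by the largest smaller rho. These 28 ranged from 1.04 to 164 TPM in mean level, with a median of 9.05 TPM, and 4 of them held a 0. Their median fitted change was 1.13 with males and -1.0 with females (log2) for the rising and -0.83 and 0.59 for the falling. Leaving out female 17 removed the largest number, with 83 of 136 left. Without female 4 or without female 12, 89 were left, and without female 19, 90. Leaving out female 8, whose score was in the middle, removed none, and leaving out female 10 or female 6 left 134 and 133. A rho of 0.6 is reached more easily with 1 female fewer. The number of transcripts meeting the rule with 14 females, retained members included, was larger, from 166 without female 4 to 265 without female 2. It exceeded 1.5 times the 136 without female 1 (237), 2 (265), 6 (207), 7 (214), 8 (219), 9 (234), 11 (211), 12 (230) or 13 (231).

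**Figure D4:**
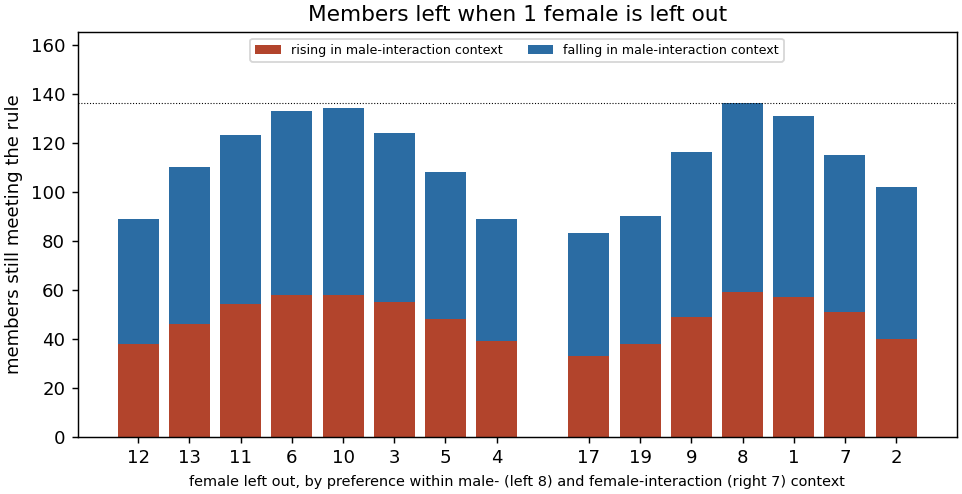
Members that still met the rule when 1 female was left out (vertical axis, stacked for members rising and falling with male-interaction preference), by the female left out, ordered by preference score within the male-interaction (left) and female-interaction (right) context. The bars are lowest at the ends of the score, with 83 without female 17 and 89 without female 12 or female 4, and reach the dotted line at 136 without female 8.

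The preference score moved with the number of the female, with rho of -0.881 (Mm) and -0.857 (Ff). Females 1 to 8 (4 Mm and 4 Ff) and females 9 to 19 (4 Mm and 3 Ff) were therefore also looked at apart. What the numbers stand for is not given in the sources used here. In the female-interaction context all 4 females numbered 1 to 8 had higher scores than the 3 numbered 9 to 19. Of the 77 falling members, 28 had every female of 1 to 8 above every female of 9 to 19 there, where 8.06% of all transcripts did, and of the 59 rising members 25 had them below, where 5.79% of all did. In the male-interaction context females 1 to 8 stood above the others in 10 of the 59 rising members (6.38% of all transcripts) and below them in 15 of the 77 falling members (4.07% of all). These separations follow from the score that chose the members.

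Within the number groups the sign of rho was kept in most members with males and in fewer with females. The females of each group are among those whose scores chose the members, so kept signs follow in part from the selection. Among the 4 male-interaction females numbered 1 to 8, rho kept its sign in 54 of 59 rising and 69 of 77 falling members, and among the 4 numbered 9 to 19 in 51 and 64. Among the 4 female-interaction females numbered 1 to 8 it kept its sign in 33 of 59 and 51 of 77, with median rho of -0.4 and 0.4, and among the 3 numbered 9 to 19 in 45 and 47. With ranks centred within the number group before the correlation, 421 transcripts met the rule, 244 rising and 177 falling with mate preference, and 18 of the 136 members were among them. In the female-interaction context the number group and preference cannot be told apart, whereas with males female 10 had a higher score than female 6.

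Standard length also moved with preference, with rho of 0.619 (Mm) and 0.571 (Ff), and the members followed body length in the direction they followed preference. In the rising set rho with standard length was positive in 55 of 59 members with males (median 0.429) and negative in 58 with females (median -0.571). In the falling set it was negative in all 77 with males (median -0.405) and positive in 76 with females (median 0.5). Of all 21671 transcripts tested, rho with standard length was positive in 12071 and negative in 9217 with males (median 0.0952), and positive in 11171 and negative in 9775 with females (median 0.0357). The total count of the library was nearly unrelated to preference with males (rho = -0.0238) and weakly related with females (rho = 0.214). The number of transcripts detected rose with preference with males (rho = 0.667) and less with females (rho = 0.25). The part of body length and detection in the members was not tested.

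Whether members also differed between the social contexts themselves was tested with voom and limma, since a shift between contexts does not alter a rank correlation within either. After Benjamini-Hochberg adjustment 0 of the 136 members and 0.0% of all transcripts were called, and edgeR and DESeq2 called 0 members as well. At an unadjusted p-value below 0.05 limma gave 6 members, 4.41% of them, against 2.69% of all transcripts. With edgeR and DESeq2 5 members (3.68%) passed the same threshold, against 456 (2.1%) and 475 (2.19%) of all transcripts. Without female 4 limma gave 10 members (7.35%) against 2.56% of all. Of the 59 rising members 5 passed, 4 of them higher in the female-interaction context, and of the 77 falling members 1 passed, also higher there. The median log2 fold change (male-interaction minus female-interaction) was -0.07 for rising and 0.01 for falling members, against -0.01 for all transcripts.

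The smallest unadjusted p-value among members belonged to the abundant rising transcript of 924 bases described above. It averaged 210 ± 25.1 CPM (SD, n = 7) with females and 178 ± 10.5 CPM (SD, n = 8) with males, and the groups overlapped between 178 and 190 CPM. Its log2 fold change was -0.24 (standard error 0.09, limma adjusted p = 1). A rising transcript of 2075 bases was higher with males, at 20.6 ± 4.35 CPM (SD, n = 8) against 14.8 ± 6.96 CPM (SD, n = 7), with a log2 fold change of 0.63 (standard error 0.24, limma adjusted p = 1). For the named transcripts the log2 fold change was 0.01 (ENSPLAT00000030294.1, standard error 0.22), 1.1 (ENSPLAT00000016778.1, standard error 0.95), -0.01 (ENSPLAT00000017760.1, standard error 1.34) and 0.06 (ENSPLAT00000017466.1, standard error 0.24), each with a limma adjusted p of 1. Only the value of ENSPLAT00000016778.1 was larger than its standard error, and in edgeR it was 0.25. Without female 9 it was 0.11, and without any other single female it lay between 0.90 and 1.49.

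Social affiliation, the time spent near the stimulus fish, was the other behavior measured, and its rho with preference was -0.262 with males and -0.143 with females. Only females that spent most of the trial near the stimulus fish had been kept in the study, which narrows the range of this behavior. In limma 0 members were called for an affiliation slope in either context after adjustment, where 0.00461% of all transcripts were called in the male-interaction and 0.0% in the female-interaction context, and edgeR gave 0 members in both. At an unadjusted p-value below 0.05, 0 rising and 6 falling members had a slope with males, 4.41% of the 136 against 5.0% of all transcripts. The 6 were 7.79% of the falling members. All 6 had positive slopes, so they fell with mate preference and had higher levels in females that stayed longer near the males. Among the 6 were transcripts at 0 in 3, 7 and 8 of the 15 females, and the other ones held no 0. The estimated slope with males was positive in 64 of the 77 falling and in 12 of the 59 rising members, against 49.2% of all transcripts. Affiliation was related to preference there (rho = -0.262), and preference chose the members, so the split is a description and its cause was not tested. Leaving out female 12 changed the 6 to 2 and leaving out female 5 to 11, and edgeR gave 4. In the female-interaction context the estimated slope was positive in 48 of the 77 falling and in 30 of the 59 rising members. Over all transcripts it was positive in 50.9% there.

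With females, 2 rising members and 1 falling member reached an unadjusted p-value below 0.05 for affiliation, 2.21% of the members against 7.29% of all transcripts, and all 3 slopes were positive. Without female 17 the number was 17, without female 19 it was 7, and edgeR gave 1. In the main limma fit with all 15 females, the share of members below this p-value was under that of all transcripts in both contexts. The order turned under some alternatives. With the number group added to the model, the share for affiliation with males was 5.88% of members against 3.83% of all transcripts. For affiliation with females it stayed lower, at 2.21% against 8.08%. The order also turned when some females were left out. Without female 17 the share for affiliation with females was 12.5% of members against 8.16% of all transcripts, and without female 5 that for affiliation with males was 8.09% against 6.08%.

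Which transcripts were members depended on how abundance was scaled. With TMM factors 151 transcripts met the rule and 111 of the 136 members were among them. With TPM in place of CPM 133 did, of which 94 were members, and the share rising with mate preference was 57.1% in place of 43.4%. With Pearson's r of log2(CPM + 1) at the same thresholds 117 transcripts met the rule, and 45 of the 136 members were among them.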

How the data were processed

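Whole-brain mRNA of 15 females (7 Ff, 8 Mm) was sequenced as single-end reads. The authors trimmed reads with cutadapt, pseudoaligned them with Kallisto 0.43.0 against Ensembl transcripts of the species and deposited 1 estimated count per transcript and female, not scaled between libraries. The TPM values that the authors deposited beside it divide that count by effective length and rescale it. Annotated length was read from the same files.

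Groups and numbers of the females follow the sample labels. Preference, affiliation and standard length were read from the study's supplementary table of behavior, and only their order or fitted relations are given. No reference used here pairs the identifiers with genes.

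Members were found by rank correlation of CPM with preference within context, among transcripts above 2 TPM in 3 or more females. The members and lists were chosen with earlier results of these data known. Context and affiliation were tested over all 15 females with voom and limma 3.58.1, TMM factors from edgeR 4.0.16 and rounded counts, with the models of the study and Benjamini-Hochberg adjustment over all 21671 transcripts. The study's rate from shuffled labels was not used. Alternatives were edgeR, DESeq2 1.42.0, other scalings, filters and thresholds, the number group and each female left out. The filter on a count above 0 in all 15 females was chosen after the data were seen. Scripts were tested on simulated data, with R 4.3.3, Python 3.11.15, NumPy 2.4.6 and SciPy 1.17.1. The 2 named transcripts of each direction were those with the largest smaller rho, ties going to the higher TPM. No 2 libraries agreed within sampling noise (chi-square per degree of freedom 10.1 or more over 105 pairs). Floors for a count of 0 cover counting error only.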

Additional observations from a re-analysis of the deposited data

Results flagged for a closer look

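Of 10 groups of values looked at (the 4 named transcripts and the library total, each in both contexts), 2 held a female far from the others by Dixon's criterion. Chance gives this in about 5% of groups of normally distributed values. That rate does not apply to ENSPLAT00000017760.1, which was at 0 in most Mm females. The level of ENSPLAT00000017760.1 in female 4 of the male-interaction context was 5.47 CPM, where the next female had 0.985 CPM. The library of female 8 of the female-interaction context held 10555933 estimated counts, where the next of that context, female 7, held 6742415. All 136 members met the rule without female 8. Her score was in the middle of her context and so weighs little in rho, and this outcome does not show what library size does. ENSPLAT00000017760.1 met the rule without female 4.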

How the results depend on the processing

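The number of members moved most with the threshold, to 37 at 0.7 and 2 at 0.8, and with ranks centred within the number group, to 421. Leaving out 1 female gave 166 to 265 transcripts. A rho of 0.6 is reached more easily with 1 female fewer and with centred ranks. The other scalings and filters tried gave between 96 and 175. For the context difference 0 members passed the adjusted p-value under every alternative run, and over all transcripts 1 passed in DESeq2 and 0 elsewhere. At the unadjusted p-value, leaving out 1 female gave 5 to 10 members for context, 2 to 11 for affiliation with males and 2 to 17 for affiliation with females, the last falling to 1 with edgeR, with log2(TPM + 1) and without TMM factors. The context fold change of ENSPLAT00000030294.1 reversed in edgeR (-0.0498), and with 1 female left out it ran from -0.145 to 0.115, that of ENSPLAT00000017760.1 from -0.556 to 0.739 (-0.945 in edgeR, against -0.01) and that of ENSPLAT00000017466.1 from -0.0268 to 0.226. The cause of these shifts was not tested. No paired analysis was possible because each number belongs to 1 female in 1 context. With 7 and 8 females, and 19.3% of transcripts at 0 in some library, ranks of low counts rest on few reads.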
